A study of Rattus norvegicus with 20 samples.

Results

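Diclofenac at 1/5 of a reference concentration for 6 h was set against no treatment in primary cultures from neonatal rat heart. The sample titles put 5 of the 20 arrays of the series in these groups, 3 in the group diclofenac 1/5 for 6 h and 2 in the untreated group. All cultures carried the labels neonate, heart and cardiomyocyte, and the labels give no strain and no genotype. The untreated group is labelled control for agent, concentration and time alike. No time is given for it, so that an effect of the drug and one of the hours in culture cannot be told apart, and the reference concentration has no molar value in the labels. The series text gives 3 replicates for every group, while the untreated group used here has 2. The other groups at 6 h, diclofenac at reference concentration 1 and at 1/25 (3 arrays each), serve for direct comparisons between concentrations. The labels do not say whether replicates were separate cultures, so p-values measure the spread between arrays, which may be technical.

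Diclofenac is a non-steroidal anti-inflammatory drug. It blocks the cyclooxygenases, the enzymes encoded by Ptgs1 and Ptgs2 that turn arachidonic acid into the precursor of prostaglandins, prostacyclin and thromboxane. Ptgs1 is made in most cells all the time, whereas Ptgs2 is an inducible gene that responds to cytokines, growth factors and stress. Cultures of neonatal heart contain beating cardiomyocytes together with fibroblasts and other non-muscle cells, and the whole culture is read on an array. In such bulk RNA, fewer cells of a type and less RNA per cell cannot be told apart.

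Levels are given as log2 of the scanner's processed signal minus the 75th percentile of the same array, so a level of 0 is the signal of a bright probe and a difference of 1 is a factor of 2. Across the 5 arrays 82.1% to 85.9% of 43379 spots were well above background. The treated and the untreated arrays did not form separate groups over 30413 genes. Correlations across genes, which are not independent replicates, ran from 0.950 to 0.969 among the treated arrays and from 0.945 to 0.979 between treated and untreated arrays. The highest of them joined the third treated array and the first untreated array, and the untreated pair had a correlation of 0.969. Both untreated arrays lay on slide 1 and all 3 treated arrays on slide 2, and the slides are linked only through the arrays of concentration 1, of which the first and second lay on slide 1 and the third on slide 2. All of these were scanned on the same day. Of 18 cardiomyocyte markers 17 were measured, and all 17 were well above background on all 5 arrays, with Tnnt2 (cardiac troponin T) and Actc1 (cardiac actin) saturated on all 5. The 13 fibroblast markers were measured as well, and Col1a1, Col1a2 and Mmp2 were saturated on all 5 arrays.

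No gene passed the threshold between the groups. The spread in this fit is estimated from all 20 arrays, those at 24 h included. Of 30486 genes tested, 0 (0.0%) passed an adjusted p of 0.05 in limma with Benjamini-Hochberg adjustment, and the smallest adjusted p was 1.00. At an unadjusted p under 0.05 there were 331 genes (1.09%), 123 higher (0.403%) and 208 lower (0.682%) at 1/5. With only the 5 arrays in the limma fit 0 genes passed as well, and 1692 had an unadjusted p under 0.05. The median difference over all genes was 0.02, with 5% of genes below -0.68 and 5% above 0.61, against a median standard error of 0.551 for a single gene. Standard errors given with ± come from this fit and are not the spread of the 5 arrays alone. Over all genes the median standard deviation was 0.3 within the treated and 0.22 within the untreated arrays. A difference of at least 1 was found for 423 genes with higher and 535 with lower levels (1.39% and 1.75%). These counts rest on few arrays: they were 932 and 1068 without the second untreated array, 638 and 760 without the first, and 704 and 1109 without the third treated array. Which direction was more frequent also depended on the settings: the counts were 545 and 461 without the second treated array, 494 and 449 with centring on the array median, 488 and 472 from the deposited values and 554 and 550 with quantile normalization. With weights for array quality 46 genes passed the adjusted threshold in limma, among them 8 of the genes named here (Ppp3cc, Or2y13, Dnajc6, Acot8, Adam5, Bpi, Iqcf1 and Cspg4), and with slide as a fixed block 2 did. The estimated weights were 4.43, 1.06 and 0.88 for the treated arrays and 1.49 for each untreated array. Weighted results thus lean on the first treated array.

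**Figure D1:**
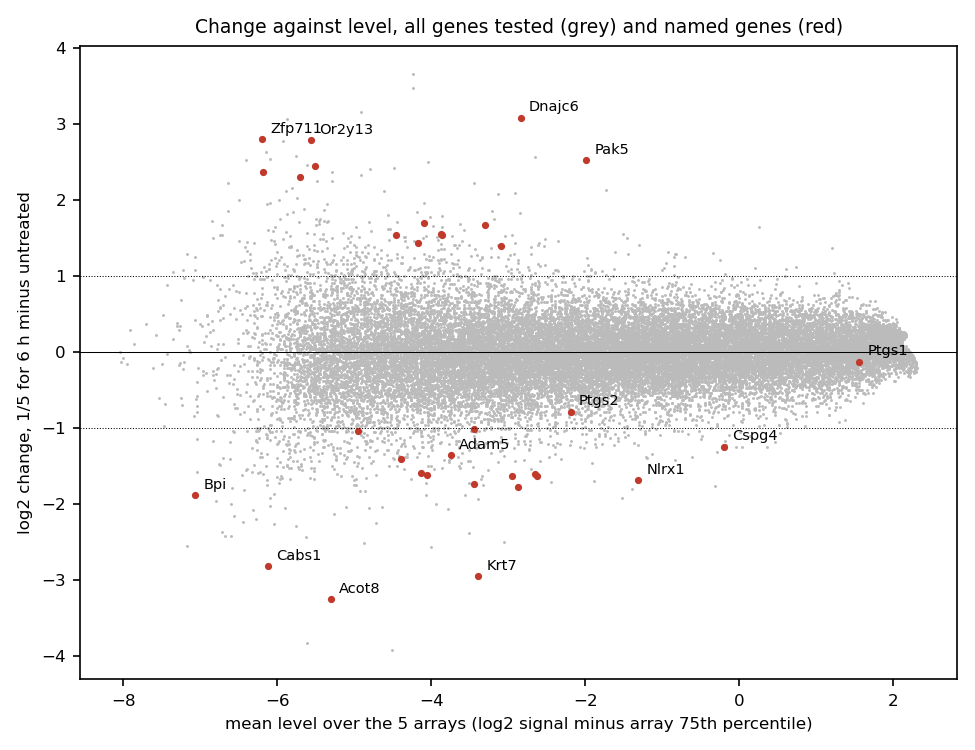
Each grey point is 1 of 30486 genes, placed by its mean level over the 5 arrays (log2 signal minus the array's 75th percentile) and its log2 difference, diclofenac 1/5 for 6 h minus untreated, and red points are the named genes. Dotted lines mark a difference of 1 either way; the spread widens towards dim genes, Dnajc6 lies at 3.08 and Acot8 at -3.26, and Ptgs1 lies near 0, at -0.13.

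Genes whose groups did not overlap, with every treated array above or below the untreated pair, were common. With 3 arrays against 2, this order also arises often where the groups do not differ. Groups without overlap are therefore a description here, for single genes and for sums alike. They numbered 3348 on the higher side (11.0%) and 2980 on the lower side (9.77%). Adding a difference of at least 1 left 277 higher genes (0.909%) and 359 lower genes (1.18%). These genes were dim, with median levels of -4.70 and -4.42 against -1.48 for all genes. Of the 277 higher genes 36.1% were well above background on no untreated array, against 1.75% of all genes tested, and 46.6% were well above background on all 5 arrays, against 91.8%. Of the 359 lower genes 13.4% were well above background on no treated array, against 0.692% of all genes. The second treated array held the most extreme value for 128 of the 277 higher and for 192 of the 359 lower genes, more often than either other treated array. Where a gene had no array of a group well above background, its fold is a lower bound, computed against each array's lowest well-measured signal.

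Among the higher genes that were well above background on all 5 arrays, the farthest apart was Dnajc6, which encodes auxilin, a co-chaperone that strips clathrin from vesicles in neurons. Its levels were -0.59, -1.45 and -2.78 in the treated arrays and -4.89 and -4.50 in the untreated arrays. The groups did not overlap, and the difference was 3.08 ± 0.86 (SE). Dnajc6 has 4 probes on the array that passed the filter, and this value comes from the brightest. The 60-base probe sequences are shown because the probes of this gene disagree, the first being the one that differed. Positions are on rat build rn3 as the array files give them, on the forward strand; exon and UTR annotation of that build was not used here.
Dnajc6 chr5:122276277-122276336: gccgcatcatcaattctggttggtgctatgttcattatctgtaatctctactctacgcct
Dnajc6 chr5:122308504-122308563: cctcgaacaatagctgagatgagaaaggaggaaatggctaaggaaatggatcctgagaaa
Dnajc6 chr5:122312907-122312966: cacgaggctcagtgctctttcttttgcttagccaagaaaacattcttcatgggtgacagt
Dnajc6 chr5:122314130-122314189: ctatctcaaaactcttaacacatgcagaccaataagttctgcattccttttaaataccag

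The other 3 probes of Dnajc6, all farther along the chromosome, showed differences of -0.09, -0.31 and -0.03 in the order of the sequences. On the probe at 122308504 the treated arrays read -4.39, -3.93 and -4.61 and the untreated arrays -4.22 and -4.21. The groups overlapped there, and the mean over the 4 probes gave a difference of 0.66. The brightest probe was also high at concentration 1, at -1.53, -1.53 and -1.45, and at 1/25 it read -4.45, -5.03 and -2.59. Levels at 1/5 and at 1 lay above both untreated arrays on every array, and at 1/25 on 2 of 3.

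Few genes with several probes had every probe changed by at least 1 without overlap. A probe short of this limit need not disagree in direction, and probes met it in opposite directions in 2 genes. Of 3714 genes with at least 2 kept probes, 72 had at least 1 probe that was higher by 1 or more without overlap, and in 0 of them did every probe do so. On the lower side 89 genes had such a probe, and in 2, Bcas1 and Fgl2, both probes did. The probes of Bcas1, at chr3:161301147-161301206 and chr3:161301782-161301841 on the reverse strand, gave differences of -1.04 and -1.17. On the first of them the treated arrays read -5.41, -5.85 and -4.82 and the untreated arrays -4.24 and -4.41. Fgl2 encodes a fibrinogen-like protein made by macrophages and endothelium that acts on prothrombin. Its probes, at chr4:9177878-9177937 and chr4:9177094-9177153 on the reverse strand, gave -1.02 and -1.21. On the first of these the treated arrays read -4.09, -3.25 and -4.22 and the untreated arrays -2.84 and -2.83. The groups did not overlap on any of these 4 probes, and the second probe of Fgl2 was well above background on 2 of the 5 arrays only. At concentration 1 the changes against the same untreated arrays were 0.01 for Bcas1 and -0.88 for Fgl2, and at 1/25 they were -0.13 and -0.58.

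For some of the named genes the arrays of concentration 1 differed between the slides. These genes are shown because they have this pattern, only 1 array of concentration 1 lay on slide 2, and the part of the slide in the differences was not tested. Pak5, a p21-activated kinase of neurons, read -1.29, -0.53 and -1.13 in the treated arrays and -3.46 and -3.55 in the untreated arrays, a difference of 2.52 ± 1.05. At concentration 1 its level was -3.34 and -3.52 on the arrays of slide 1 and -1.21 on the array of slide 2. The concentration 1 arrays of slide 1 thus sat with the untreated arrays, and that of slide 2 with the treated arrays. At 1/25 it read -4.20, -3.94 and -0.56, so that the third array stood apart there too. Afp, the main plasma protein of the fetus, read -3.37, -3.24 and -3.64 against -5.20 and -5.01, a difference of 1.69 ± 0.57. Its levels at concentration 1 were -4.63 and -4.67 on slide 1 and -2.86 on slide 2. With slide as a fixed block, which rests on concentration 1 alone, the differences were 0.29 for Pak5 and -0.10 for Afp. Ifna4, a type I interferon, had 1.55 ± 0.55 without the block and 0.06 with it. On the lower side the arrays of concentration 1 also differed between slides for Pgr, the progesterone receptor. It read -5.08, -4.56 and -4.50 against -3.03 and -3.15, and at concentration 1 -3.06 and -3.09 on slide 1 and -4.92 on slide 2. Its difference of -1.62 ± 0.47 became 0.22 with the block.

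Further higher genes with signal on all 5 arrays had differences from 0.98 to 1.74 with the slide block. They were Terc, the RNA template of telomerase (1.67 ± 0.87), Cbx7, a Polycomb chromobox protein (1.54 ± 0.67), Slc22a5, the carnitine transporter of the plasma membrane (1.53 ± 0.68), Eogt, which adds GlcNAc to EGF domains (1.43 ± 0.44), and Kirrel3, an adhesion molecule related to nephrin (1.39 ± 0.43). Without the second treated array the value of Terc was 1.09. Eogt read -3.81, -3.52 and -3.47 in the treated arrays and -5.38 and -4.67 in the untreated arrays. Kirrel3 read -2.56, -2.71 and -2.33 against -3.51 and -4.35, while a second probe of it gave -0.02. For Slc22a5 the second probe gave 0.39, on which the groups overlapped. Both Eogt and Kirrel3 were as high at concentration 1, at -3.74, -3.62 and -3.23 and at -2.70, -2.57 and -2.75.

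Other higher genes had no untreated array above background. Or2y13, an olfactory receptor, was at least 2.99-fold higher at 1/5. For Trim34, a tripartite motif ubiquitin ligase, the lower bound from the mean of the 3 treated arrays was 2.81-fold higher. Its treated levels were -5.73, -2.59 and -5.29, so that the second array stood apart and raised this bound. Without that array the fitted difference of 2.44 was 1.46, and the bound was not computed again. Ppp3cc, a catalytic subunit of calcineurin, the phosphatase that links calcium to NFAT, was at least 2.37-fold higher. It read -4.55, -5.04 and -4.75 in the treated arrays and -7.48 and -6.67 in the untreated arrays. Zfp711, a zinc finger protein, was at least 1.92-fold higher and Slain1, a microtubule-associated protein, at least 1.72-fold higher. In limma without array weights none of these 5 passed. With array weights the adjusted p in limma was 0.00099 for Ppp3cc and 0.0346 for Or2y13, which passed, and 0.091 for Slain1, 0.136 for Zfp711 and 0.246 for Trim34; the highest over the settings was 1.00 for each.

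On the lower side the largest named difference was that of Acot8, the peroxisomal acyl-CoA thioesterase. It read -7.94, -6.12 and -5.78 in the treated arrays and -2.03 and -4.67 in the untreated arrays, a difference of -3.26 ± 0.77. The groups did not overlap, but the untreated arrays differed from each other by more than the second lay from the third treated array, and Acot8 was well above background on 1 of 3 treated arrays. Without the first untreated array the difference was -1.94. Against the same untreated arrays Acot8 was also lower at concentration 1 (-2.3) and at 1/25 (-3.28). Krt7, a keratin of simple epithelia and mesothelium, read -4.04, -6.15 and -3.53 against -0.89 and -2.36, a difference of -2.95 ± 0.73. Its levels at concentration 1 (-2.93, -2.52 and -2.75) and at 1/25 (-2.28, -1.65 and -3.11) lay above all 3 arrays of 1/5. The direct differences, -1.84 ± 0.66 from 1 and -2.23 ± 0.66 from 1/25, had an adjusted p of 1.00 in limma.

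**Figure D2:**
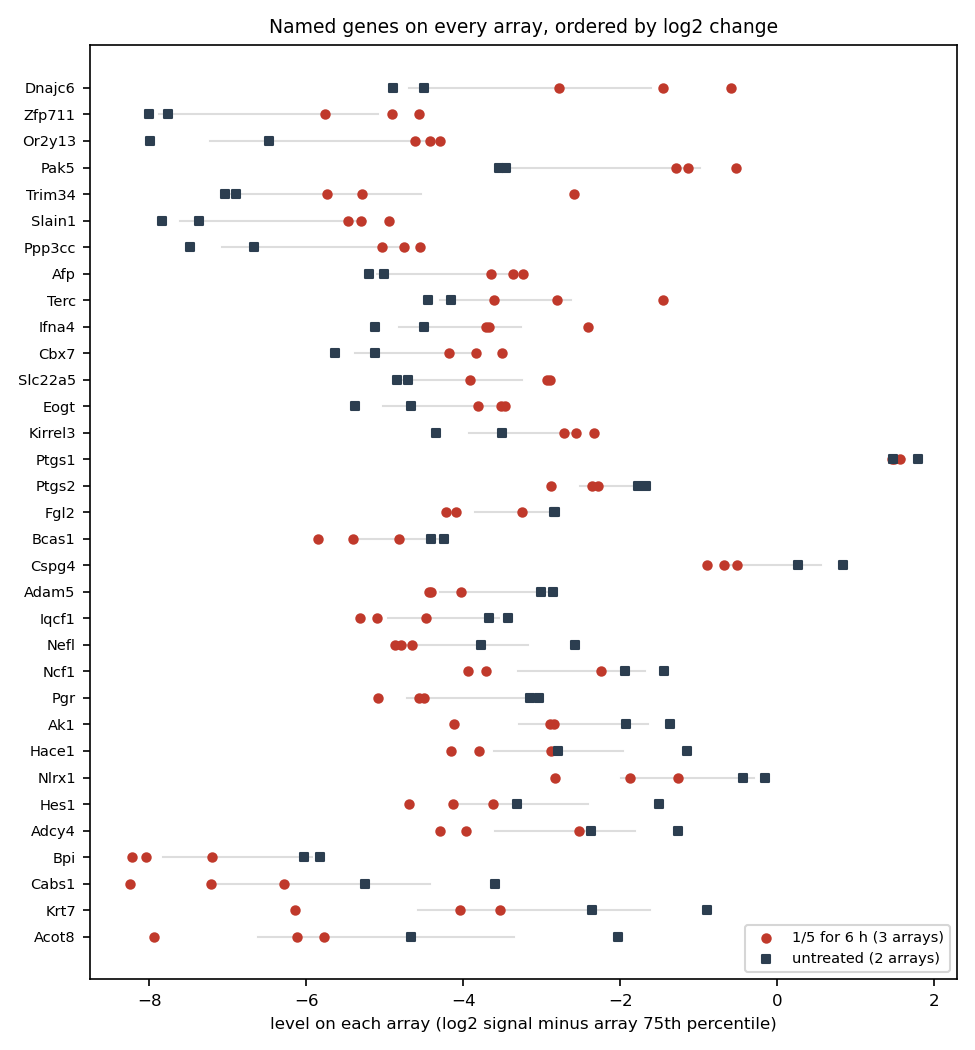
Levels of the named genes on each array (log2 signal minus the array's 75th percentile), ordered by their log2 difference, with red circles for the 3 arrays of diclofenac 1/5 for 6 h, dark squares for the 2 untreated arrays and a grey line between the group means. The rule asked for groups that do not overlap except for Ptgs1 and Ptgs2; spreads within a group differ widely, as in Acot8 (untreated -2.03 and -4.67) and Trim34 (treated -5.73, -2.59 and -5.29).

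Cspg4, the NG2 proteoglycan on the surface of pericytes, read -0.68, -0.89 and -0.51 in the treated arrays and 0.84 and 0.27 in the untreated arrays, a difference of -1.25 ± 0.38. All 3 arrays of 1 (0.12, 0.36 and 0.13) and of 1/25 (0.74, 1.04 and 0.10) lay above the arrays of 1/5. Cabs1, a calcium-binding protein of spermatids, was well above background on no treated array and was at least 3.23-fold lower. Adam5, a sperm protein of the ADAM family, read -4.44, -4.41 and -4.03 against -2.86 and -3.01, a difference of -1.36 ± 0.37 with narrow spreads. Iqcf1, an IQ-motif protein, had a difference of -1.41 ± 0.40. Bpi, which encodes a protein of neutrophil granules that kills Gram-negative bacteria, met the rule for lower genes but was well above background on none of the 5 arrays, so no fold is given.

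The other lower genes with signal on all 5 arrays were of several kinds. Hes1, a repressor induced by Notch signalling, read -4.69, -3.62 and -4.13 against -3.31 and -1.50, a difference of -1.74 ± 0.97. Without the second untreated array it was -0.84, and the corresponding value for the ubiquitin ligase Hace1 (-1.64 ± 0.61) was -0.82. Ncf1, a subunit of the phagocyte NADPH oxidase, had -1.61 ± 0.86, and Nlrx1, a mitochondrial protein of the NOD-like receptor family, -1.69 ± 0.80. Adcy4, an adenylyl cyclase, had -1.78 ± 0.83, Ak1, the adenylate kinase of the cytosol, -1.64 ± 0.82, and Nefl, the light neurofilament chain, -1.60 ± 0.52. Without the first untreated array Nefl had -1.0. For Adcy4 the third treated array (-2.53) lay close to the first untreated array (-2.37).

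Members of the prostanoid list were lower more often than higher at 1/5. The list also holds genes of the lipoxygenase branch, and Alox5, Alox12, Alox15, Alox5ap and Lta4h are among those below 0. Of 28 members 21 were measured, 3 above 0 and 18 below, where 52.1% of all genes lay above 0, and the median difference was -0.26 against 0.02 over all genes. No member passed the threshold, Akr1c14 was well above background on none of the 5 arrays, and 5 members lay below both untreated arrays on every treated array, against 9.77% of all genes. Among them was Ptgs2, the inducible cyclooxygenase, which read -2.36, -2.28 and -2.88 in the treated arrays and -1.67 and -1.77 in the untreated arrays. The groups did not overlap, but the difference of -0.79 ± 0.68 was close to its standard error. That error comes from the fit of all 20 arrays. The standard deviation of Ptgs2 was 0.33 in the treated and 0.07 in the untreated arrays, and 1.85 at 1/5 for 24 h. Ptgs1 read 1.49, 1.57 and 1.46 against 1.79 and 1.48, a difference of -0.13 ± 0.63 with overlapping groups. The probe of Ptgs1 was saturated on 1 of the 2 untreated arrays, and without the first untreated array the difference was 0.03.

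Upstream of the cyclooxygenases, Pla2g6, a phospholipase that frees fatty acids from membranes, read -2.79, -2.84 and -2.67 against -1.44 and -2.23, a difference of -0.93 ± 0.47. Downstream, the prostaglandin E synthase Ptges read -2.07, -1.91 and -1.85 against -1.75 and -1.63, which is apart but small, at -0.26 ± 0.35. The synthase Ptges2, at 0.20 ± 0.31, and the receptor gene Ptger2, at 0.22 ± 0.68, had the highest values of the list. The thromboxane receptor gene Tbxa2r had the lowest, -1.05 ± 1.01, with overlapping groups. In the lipoxygenase branch Alox15 had -0.75 ± 0.73 and Lta4h, the enzyme that forms leukotriene B4, -0.34 ± 0.45, both without overlap. At concentration 1 and at 1/25 the medians of the list against the same untreated arrays were -0.05 and -0.18. Direct comparison gave medians of -0.12 against 1 and -0.13 against 1/25.

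Contractile genes gave a median of -0.21, with 8 of 21 measured members above 0 and 13 below. The members with the lowest values were Ckm, the muscle creatine kinase, and Mb, myoglobin. Ckm read -0.88, -1.76 and -1.56 in the treated arrays and 0.29 and -0.26 in the untreated arrays, a difference of -1.42 ± 0.56, and Mb had -0.91 ± 0.35. Neither overlapped between groups. The myosin heavy chain genes pointed the other way, with 0.32 ± 0.93 for Myh6 and 0.54 ± 0.81 for Myh7. They varied widely between arrays of one group, as Myh6 read -0.20, 0.95 and -1.10 in the treated arrays. For Ckm and Mb the differences were -0.02 and -0.26 at concentration 1, and -0.16 and -0.21 at 1/25. The cardiac stress list had a median of -0.21 over 12 genes, from -0.78 ± 0.95 for Edn1 (endothelin) and -0.58 ± 0.48 for Rcan1, a calcineurin regulator, to 0.22 ± 0.38 for Ccn1, which was saturated, and to Myh7.

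Calcium and ion channel genes centred on -0.01 over 29 genes. The lowest was Gja5, the connexin of the conduction system and atria, which read -4.31, -4.37 and -3.92 against -2.67 and -2.79, a difference of -1.47 ± 0.61 without overlap. The pacemaker channel gene Hcn2 had -1.06 ± 0.83 with overlapping groups. The potassium channel genes Kcnq1 and Kcna5 had the highest values, 0.98 ± 0.97 and 0.89 ± 0.55. At concentration 1 and at 1/25 Gja5 stood at -0.41 and -0.02.

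Metabolic genes had medians near that of all genes. Fatty acid oxidation gave -0.07 over 19 genes, from Hadha (-0.43 ± 0.51) and Acaa2 (-0.41 ± 0.43) to Etfdh (0.39 ± 0.69) and Cpt2 (0.52 ± 0.56). Lipid handling genes under PPAR control gave -0.01 over 16 genes, with Acot8 and then Ppargc1a (-0.41 ± 0.95) lowest and Cd36 (0.26 ± 0.47) and Acsl1 (0.39 ± 0.65) highest. Oxidative phosphorylation gave -0.05 over 28 genes, with 10 above and 18 below 0. In that list Ndufs1, a core subunit of complex I, read -4.43, -4.36 and -3.40 against -2.96 and -3.10, a difference of -1.04 ± 0.64, followed by Cyc1 at -0.50 ± 0.47. Uqcrc2 (0.23 ± 0.74) and Atp5pb (0.30 ± 0.44, saturated) were highest. Hypoxia and glycolysis genes gave -0.11 over 25 genes. Egln3, an oxygen-sensing prolyl hydroxylase, read -0.65, -0.33 and -0.42 against 0.51 and 0.47, a difference of -0.96 ± 0.34, and Ndrg1 had -0.95 ± 0.47, both without overlap. Bnip3 (0.37 ± 0.75) and Hk2 (0.40 ± 0.44) were highest. Cholesterol synthesis genes gave 0.06 over 25 genes, with Mvk (-0.72 ± 0.67) and Nsdhl (-0.67 ± 0.76) lowest.

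Stress pathways were balanced as well. The integrated stress response and ER stress list had 12 of 24 genes on each side of 0 and a median of 0.02, with Vldlr (-0.65 ± 0.89) and Sesn2 (-0.57 ± 0.64) lowest and Dnajc3 (0.33 ± 0.66) and Ern1 (0.37 ± 0.79) highest. The NRF2 list had a median of 0.00 over 26 genes. The subunits of glutamate-cysteine ligase, which makes glutathione precursor, lay at both ends of it: Gclc at -1.26 ± 0.88 and Gclm at 0.94 ± 0.68, both without overlap. Gpx4 had -0.95 ± 1.03 and Nqo1 0.51 ± 1.13. Heat shock genes gave -0.05 over 20 genes, from Hspa1l (-1.11 ± 0.46) and Hspb1 (-0.48 ± 0.79) to Hspe1 (0.31 ± 0.46, saturated) and Dnajc6. Targets of p53 gave 0.00 over 18 genes, with Plk2 (-0.61 ± 1.10) and Sesn2 lowest and Gadd45a (0.28 ± 0.28) and Perp (at least 1.43-fold) highest.

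Apoptosis regulators gave a median of 0.12, with 16 of 24 genes above 0 and 6 without overlap on the higher side, against 52.1% and 11.0% of all genes. Casp2 (0.26) and Diablo (0.15) are among those above 0 but were saturated on all 5 arrays, and Casp2 is 1 of the 6. The highest were the caspase gene Casp9 (1.20 ± 0.68) and Apaf1 (0.62 ± 0.73), whose products meet in the apoptosome, and the lowest Bcl2l11 (-0.90 ± 0.68) and Bik (-0.54 ± 0.39). Casp9 read -4.25, -4.59 and -3.96 against -5.32 and -5.62 and was well above background on 1 untreated array. Cell cycle genes gave the highest median of the 23 pathway lists, 0.15 over 34 genes, from Plk1 (-0.71 ± 0.52) and Rrm1 (-0.57 ± 0.46) to Kif11 (0.55 ± 0.73) and Cdc6 (0.83 ± 0.90). Proteasome genes gave 0.02 over 24 genes and had the narrowest range of the pathway lists, from Psmb6 (-0.26 ± 0.60) and Psmc1 (-0.22 ± 0.45) to Psma4 (0.25 ± 0.44, saturated) and Psmc6 (0.36 ± 0.71). Autophagy genes gave -0.01 over 20 genes, from Lamp1 (-0.66 ± 0.81) and Ctsl (-0.42 ± 0.80) to Atg12 (0.31 ± 0.55) and Bnip3. Drug metabolism and transport genes gave 0.13 over 19 genes. Ephx1, the microsomal epoxide hydrolase, read -3.90, -4.84 and -3.81 against -3.10 and -3.02, a difference of -1.12 ± 0.49. Cyp2c11 had -0.56 ± 0.93, and Nqo1 and Abcc4 (0.55 ± 0.72) were highest. Clock genes gave -0.13 over 16 genes, from Bhlhe40 (-1.03 ± 1.11) and Nr1d1 (-0.53 ± 1.06) to Per3 (0.28 ± 0.62) and Bmal1 (0.39 ± 0.31).

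Inflammatory genes were below 0 more often than above. Cytokine, chemokine and NF-kB target genes gave -0.16, with 5 of 19 above 0. Ccl2, the chemokine that draws monocytes, read -5.50, -4.74 and -6.15 against -3.75 and -3.07, a difference of -2.05 ± 0.91, and was well above background on 1 of 3 treated arrays. Ccl20 had -1.38 ± 0.81 with overlapping groups, Birc3 had 0.39 ± 0.48, and Sele, the endothelial selectin, was at least 1.97-fold higher. At concentration 1 and at 1/25 Ccl2 stood at -1.09 and -1.13. Interferon-stimulated genes gave -0.16 too, with 4 of 21 above 0, 17 below and 7 without overlap on the lower side, where 52.1% of all genes lay above 0 and 9.77% were lower without overlap, and Igtp was well above background on none of the 5 arrays. The lowest were the transcription factor gene Irf1 (-0.59 ± 0.38) and the immunoproteasome gene Psmb9 (-0.51 ± 0.52), and the highest was Irf9 (0.26 ± 0.43). Irf1 read -2.74, -3.08 and -2.73 against -2.08 and -2.44. At concentration 1 Irf1 and Psmb9 stood at 0.34 and 0.32. Immediate early genes gave 0.08 over 26 genes, from Dusp1 (-0.76 ± 0.75) and Maff (-0.64 ± 0.60) to Junb, above background on no untreated array, and Klf4 (0.65 ± 0.88).

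**Figure D3:**
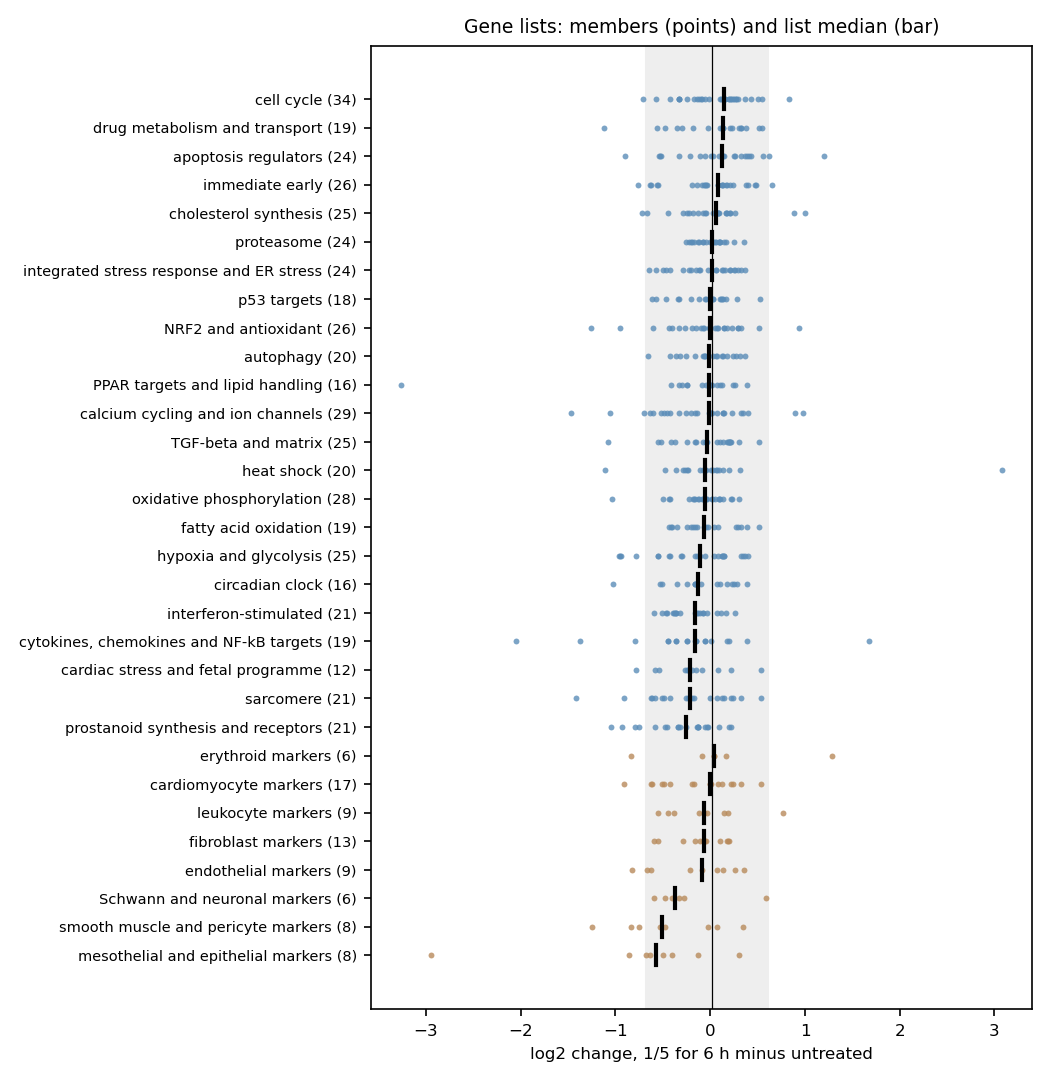
Log2 differences, diclofenac 1/5 for 6 h minus untreated, of the measured members (points) and the median (black bar) of 23 pathway lists (blue) and 8 marker lists (brown), with the number of measured genes in parentheses. The grey band holds the middle of all genes from -0.68 to 0.61 and the thin line their median, 0.02; the lowest medians are -0.57 for mesothelial and epithelial and -0.51 for smooth muscle and pericyte markers.

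Matrix genes of the TGF-beta list gave -0.03 over 25 genes, 9 of them saturated on all 5 arrays, from Mmp3 (-1.08 ± 0.55) and Postn (-0.55 ± 0.89) to Mmp14 (0.30 ± 0.40, saturated) and Tgfbr2 (0.52 ± 0.93). Over all lists together, 548 of 618 different genes were measured, and 0 passed the threshold. At an unadjusted p under 0.05 there were 11 (2.01%), against 1.09% of all genes. By at least 1, 4 were higher (0.73%) and 15 lower (2.74%), against 1.39% and 1.75%. Groups did not overlap for 44 genes on the higher and 74 on the lower side, together 21.5% of the 548 measured. Over all genes the shares were 11.0% higher and 9.77% lower, together close to the share in the lists. The lower side held more of these genes in the lists, and the higher side held more over all genes (3348 against 2980). This lean over all genes was small. Its median difference of 0.02 became -0.02 when probes saturated on any array of the 2 groups were left out.

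The mesothelial and epithelial, smooth muscle and pericyte, leukocyte and erythroid lists had lower marker sums on every treated array than on either untreated array. The summed level of the 8 measured mesothelial and epithelial markers was 0.48, 0.29 and 0.34 on the treated arrays and 1.42 and 0.84 on the untreated arrays. Of these markers 7 were below 0 and 5 were lower without overlap, against 9.77% of all genes, among them Krt7, Wt1 (-0.86 ± 0.57), a transcription factor of the mesothelium, and Krt8 (-0.68 ± 0.44). Krt19 (0.30 ± 0.40) was the 1 member above 0, and Cdh1 had -0.13 ± 1.35. The 8 smooth muscle and pericyte markers summed to 3.05, 2.84 and 3.11 against 3.33 and 3.47. Cspg4 and Smtn (-0.84 ± 0.59) were lowest, Des (0.07 ± 1.15) and Pdgfrb (0.35 ± 0.64) highest, and the median was -0.51. The sums of both lists did not overlap between the groups, nor did those of the leukocyte and erythroid lists, given next.

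Leukocyte markers summed to between 2.02 and 2.24 in the treated arrays and 2.37 and 2.43 in the untreated arrays, with a median difference of -0.07 over 9 genes. The lowest were Csf1r (-0.55 ± 0.81) and Lyz2 (-0.45 ± 0.46) and the highest Cd163 (0.19 ± 0.34) and Cd3e (0.77 ± 1.08). Erythroid markers summed to between 0.08 and 0.18 against 0.44 and 0.55, although 4 of 6 measured members lay above 0 and the median difference was 0.04. Among them Ahsp, the chaperone of alpha globin, had -0.84 ± 0.58 and Klf1 -0.09 ± 0.38, while Epb42 (0.17 ± 0.73) and Rhag, above background on 1 treated array alone, were higher. Sums of cardiomyocyte markers (4.91 to 5.10 against 4.99 to 5.12), fibroblast markers (4.57 to 4.68 against 4.55 to 4.75) and endothelial markers (2.51 to 2.82 against 2.69 to 2.71) overlapped. Their medians were 0.00, -0.07 and -0.09. Csrp3, a Z-disc protein, had -0.63 ± 0.41 among cardiomyocyte markers, Thy1 had -0.59 ± 0.48, Col1a2 0.19 ± 0.46 and Dcn 0.20 ± 0.54 among fibroblast markers, and Flt1, a VEGF receptor, had -0.83 ± 0.51, Vwf -0.67 ± 0.72, Tie1 0.26 ± 0.58 and Tek 0.36 ± 0.66 among endothelial markers. Schwann and neuronal markers gave -0.37 over 6 genes, with Gap43 (-0.59 ± 0.56) lowest and Sox10 (-0.28 ± 0.43) and Elavl4 (0.59 ± 0.53) highest, and their sums overlapped. The part of these cell markers in the other differences was not tested.

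**Figure D4:**
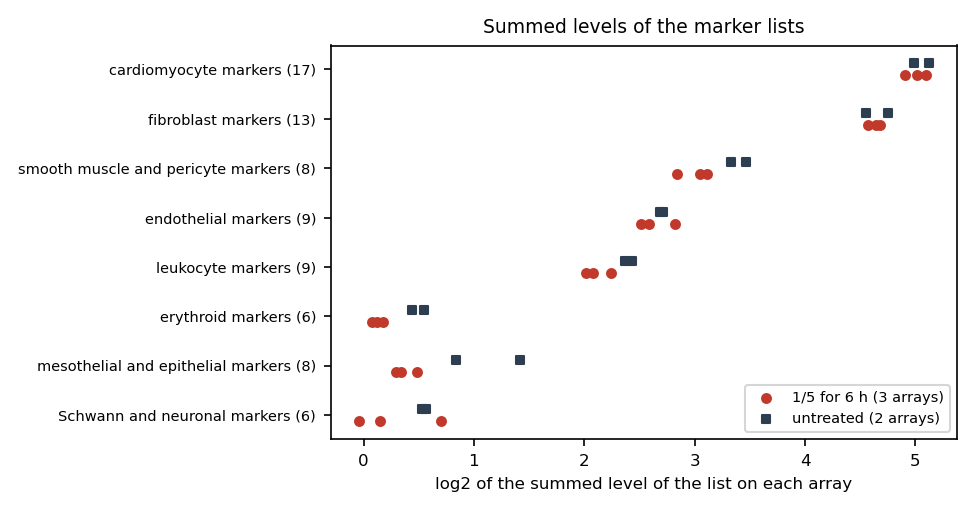
Log2 of the summed level of each marker list on each array, with red circles for the 3 arrays of diclofenac 1/5 for 6 h, dark squares for the 2 untreated arrays and the number of measured markers in parentheses. The mesothelial and epithelial sums are 0.29 to 0.48 against 0.84 to 1.42 and the smooth muscle and pericyte sums 2.84 to 3.11 against 3.33 to 3.47. The leukocyte and erythroid sums also lie lower on every treated array, and the cardiomyocyte sums overlap.

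The comparison of 1/5 with concentration 1 at 6 h asks where the steps of the dilution differ. Its difference of means does not use the untreated arrays, but its standard errors and p-values come from the fit of all 20 arrays. By limma with Benjamini-Hochberg adjustment 2 of 30486 genes passed (0.00656%), both lower at 1/5, and 855 had an unadjusted p under 0.05 (2.8%). LOC291521, annotated on the array as similar to a spindlin-like protein, read -7.97, -7.92 and -8.24 at 1/5, where it was well above background on no array, and -4.32, -2.96 and -4.15 at concentration 1. It was at least 5.02-fold lower at 1/5, with a fitted difference of -4.23 ± 0.45 and an adjusted p of 0.00129 in limma. The untreated arrays, at -7.92 and -8.17, were below background too. Synpo encodes synaptopodin, which binds actin and alpha-actinin. It read -3.42, -2.55 and -2.49 at 1/5, 0.04, 0.40 and 0.15 at 1, and -2.32 and -2.87 untreated. Its difference between 1/5 and 1 was -3.01 ± 0.43, with an adjusted p of 0.0318 in limma. On slide 2 alone, which holds all arrays of 1/5 and 1 array of concentration 1, the differences were -3.89 for LOC291521 and -2.97 for Synpo. Both genes stand outside the rule for names and are given because they passed. The call for Synpo was lost when any single array of either group was left out and with the replicate number as a block (adjusted p = 0.0923 in limma, within a range of 8.22e-07 to 0.409 over its settings), and both calls were lost with slide as a fixed block and with only the arrays of these groups in the fit. The call for LOC291521 was also lost with normexp background correction (adjusted p = 0.765 in limma, the highest over its settings, the lowest being 8.22e-07).

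**Figure D5:**
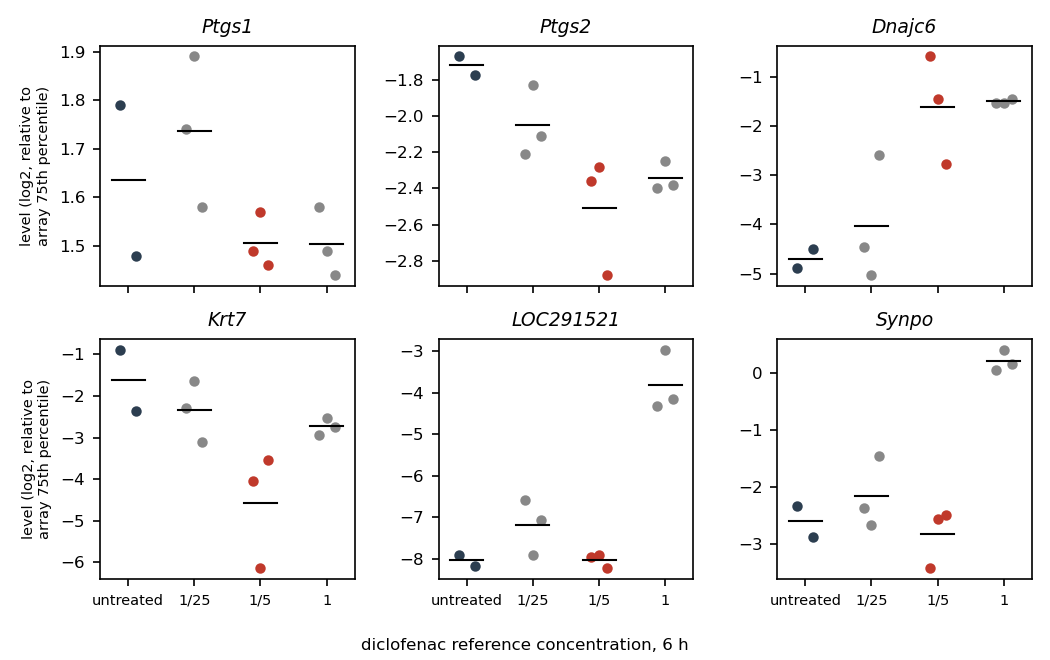
Levels on each array (points; log2 signal minus the array's 75th percentile) and group means (lines) of 6 genes in untreated cultures (2 arrays, dark) and after 6 h of diclofenac at 1/25, 1/5 (red) and 1 (3 arrays each). LOC291521 and Synpo are high at concentration 1 alone, Dnajc6 is high at 1/5 and at 1, and Krt7 is lowest at 1/5; the vertical scales differ, and Ptgs1 stays between 1.44 and 1.89.

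By size, 182 genes were higher and 1381 lower by at least 1 at 1/5 than at 1 (0.597% and 4.53%). This split depends on the scaling: centring on the array median gave 452 and 849, the deposited values 458 and 848, and quantile normalization 603 and 1005. Centring on the median moved the median of all genes in this comparison from -0.02 to 0.17. Against 1/25 no gene passed in limma (0.0%), 848 had an unadjusted p under 0.05 (2.78%), and 1278 were higher and 384 lower by at least 1 (4.19% and 1.26%). Here too the scaling mattered, with 939 and 574 by the array median, 936 and 582 in the deposited table and 764 and 701 by quantiles. Slide and scan day cannot be told apart from concentration in the comparison with 1/25, whose arrays lay on slides 3 and 4 and were scanned on another day. The genes that stood apart from untreated cultures by at least 1 at 1/5 had median changes, against the same untreated arrays, of 1.27 at 1/5, 0.87 at 1 and 0.33 at 1/25 for the 277 higher genes and of -1.26, -0.42 and -0.65 for the 359 lower genes. They were chosen on the arrays of 1/5 and share the untreated arrays, so these medians are a description.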

How the data were processed

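RNA of 20 rat cultures was read on 1-colour Agilent arrays, of which 5 enter the comparison with untreated cultures. The members and the gene lists were chosen with earlier results of these data known. The deposited scanner files hold an intensity for each spot, the processed signal of Agilent Feature Extraction 9.5.3.1 per the file headers, together with flags for control spots, outliers, saturation and signal well above background that the authors deposited as they were. The series values that the authors deposited are a ratio for each probe. Set against the scanner values it was the signal over the array's median, divided by the mean of the untreated arrays, and it served as an alternative.

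Control and outlier spots were left out, and log2 signals were centred by subtracting each array's 75th percentile. Spots of a probe were averaged, and 35058 of 41012 probes were kept, each of which had 1 or more groups with all arrays well above background. Names came from RefSeq tables by accession (10861 probes), symbol (5536) or synonym (3703), and 20912 kept the name in the file. Each of 30488 genes was represented by its brightest probe. All 20 arrays, in 7 groups, entered 1 fit in limma 3.58.1 (R 4.3.3), with Benjamini-Hochberg adjustment over all genes and an adjusted p-value of 0.05 as the threshold. Tables and plots used Python 3.11.15, numpy 2.4.6, pandas 2.3.3, matplotlib 3.10.9 and the R package data.table, version 1.17.8. The script was tested on simulated data. The number of arrays limits the precision.

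Named genes had non-overlapping groups, a change of at least 1 and a true symbol rather than a locus, clone or accession number. In each direction the 8 of smallest p were taken, then the 8 of largest change among genes well above background on all 5 arrays, and up to 6 with every probe changed. Ptgs1, Ptgs2 and the 2 highest and 2 lowest members of each list were added. A few genes that this rule selects are not reported here. Alternatives covered background correction, scaling, filter, probe choice, replicate block, slide, scan day, array weights and arrays left out; 3 more, on the arrays in the fit and saturated probes, were chosen after seeing the data.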

Additional observations from a re-analysis of the deposited data

Results flagged for a closer look

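For 2 genes the response at 1/5 differed from that at concentration 1 by a direct test between the groups at 6 h in limma. LOC291521 differed by -4.23 ± 0.45 (SE), with levels of -7.97, -7.92 and -8.24 at 1/5 and of -4.32, -2.96 and -4.15 at 1. It was well above background on no array of 1/5, so the fitted value is no exact fold and the gene was at least 5.02-fold lower. Its adjusted p was 0.00129 in limma and it passed in 19 of 22 settings. Synpo differed by -3.01 ± 0.43, lower on all 3 arrays of 1/5 than on any array of 1, with an adjusted p of 0.0318 in limma, and passed in 12 of 23 settings. Both were named after their values were seen.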

How the results depend on the processing

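Against untreated cultures no gene passed in limma, and the count stayed 0 when any array was left out; it was 2 with slide as a fixed block (BF398657 and Nutf2, both higher) and 46 with array weights. The genes higher and lower by at least 1 against untreated, 423 and 535, numbered 166 and 236 with normexp, 715 and 852 with no filter, 184 and 257 with only genes well above background on every array and 881 and 1887 with slide as a fixed block. More genes were higher than lower with centring on the array median (494 and 449), in the deposited values (488 and 472), with quantile normalization (554 and 550) and without the second treated array (545 and 461). The 331 genes with an unadjusted p under 0.05 against untreated numbered between 197 and 3685 over the settings, the highest with array weights, 2326 with only the arrays of the first scan day and 1692 with only the 5 arrays. Between 1/5 and 1 the count of 2 became 1 with normexp, 0 with only genes well above background on every array, 10 with slide as a random block, 7 with slide as a fixed block, 3367 with array weights, 7 without the third array of 1/5 for 24 h and 7 with only the arrays of the first scan day, and lay between 1 and 2 when an array was left out. Between 1/5 and 1/25 the count of 0 became 2 with slide as a random block, 970 with array weights and 1 without the third array of 1/5 for 24 h; it lay between 0 and 16 when an array was left out, with 16 without the third array of 1/25. Slide and scan day as fixed blocks could not be fitted there, since no group links the slides or days. The cause of these shifts was not tested. The medians of 16 of the 31 gene lists turned sign in at least 1 setting, those of drug metabolism (-0.11 to 0.24), clock genes (-0.24 to 0.10) and erythroid markers among them. Another 3 lists, at 0 in the main fit, had medians on both sides of 0. They were NRF2 (-0.15 to 0.08), p53 targets (-0.12 to 0.04) and cardiomyocyte markers (-0.18 to 0.11). Prostanoid (-0.47 to -0.17), interferon (-0.29 to -0.12), mesothelial (-0.89 to -0.36) and smooth muscle (-0.61 to -0.37) medians stayed below 0 in the settings run. Signs turned for Afp (-0.10) and Pgr (0.22) with slide as a fixed block, and for Ptgs1 with the replicate block (0.05) and without the first untreated array (0.03; -0.28 to 0.03 over arrays left out). With the replicate number as a block the counts were 0, 2 and 0; the same-numbered pairs against untreated had r of -0.08 and 0.40, and with 2 untreated arrays, whose deviations mirror each other, this can hardly decide on pairing. The labels give no shared source, and the numbers were not taken as pairs. Saturated probes and probes near background limit what can be read.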
